A study of Mus musculus with 24 samples.

Results

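The 10 genes described here form the ATF4 arm of the integrated stress response: Atf4, Atf5, Ddit3, Trib3, Chac1, Asns, Psat1, Phgdh, Gdf15, and Ppp1r15a. They were chosen by name, with earlier results of these data known. All 10 were found among the 56941 genes listed, and all 10 were among the 13315 genes that passed the filter on low counts. Ddit3 has another row, a short annotated copy inside the same locus, which held 0 counts in every library and was left aside.

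RNA was sequenced from sheets of C2C12 muscle, a line of mouse myoblasts that fuse on differentiation and form myotubes able to contract. All tissues carried the light-gated channel ChR2 fused to tdTomato, grew on fibrin gels, and were differentiated in medium with horse serum and IGF-1. Blue light pulses were given for 60 min each day at 1, 4, or 10 Hz, and the controls were left unstimulated. Each of the 4 conditions had 6 biological replicates, giving 24 libraries of 1 cell line. Tissues of every condition, the controls included, contracted spontaneously, so the controls may not have been at rest. The sample labels state that low-input samples were ribodepleted rather than selected for poly(A) RNA, without naming those samples.

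The integrated stress response begins with kinases that sense amino acid shortage, unfolded protein in the endoplasmic reticulum, heme shortage, or viral RNA, and that phosphorylate the initiation factor eIF2. Bulk translation then slows, while a few messages, Atf4 among them, are translated more. ATF4 protein binds DNA with C/EBP partners and turns on genes for amino acid supply, redox control, and feedback on the pathway itself, and the pathway is known in muscle for its response to mitochondrial and contractile stress. Only RNA was measured here, so neither eIF2 phosphorylation nor ATF4 protein was seen.

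The genes fall into 3 roles. Atf4, Atf5, and Ddit3 encode transcription factors, Ddit3 being the gene of CHOP. Trib3 encodes a pseudokinase that restrains ATF4, Ppp1r15a encodes GADD34, the inducible subunit of the phosphatase that removes phosphate from eIF2, and Chac1 encodes an enzyme that breaks down glutathione. Asns makes asparagine, Phgdh and Psat1 catalyze successive steps of serine synthesis, and Gdf15 encodes a secreted stress cytokine.

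ATF4 and its C/EBP partners bind a composite site whose core was searched here as TGATGNAA on both strands, that is, also as TTNCATCA. The search covered RefSeq windows of 300 bases, from 250 bases before to 50 bases after each gene's start, in build GRCm38.p6. All 10 genes matched an entry. The letters stood in the windows of Chac1, Asns, and Trib3, and 3.97% of 32851 promoters, or 4.51% of 27025 genes, held them. In Trib3 they lay 14 bases after the first transcribed base, so that window is not printed. After the sequences had been read, the CRE letters TGACGTCA, the palindromic site of CREB and ATF family factors, were searched as well. They stood in the window of Ppp1r15a alone among the 10 genes, and 1.79% of promoters, or 2.03% of genes, held them. The 250 bases before the start of 4 genes are shown, each 5′ to 3′ on the gene's strand. Chac1 and Asns hold the composite letters, while Ddit3 and Ppp1r15a are the members with the largest fold changes below. Capitals mark a match of either motif.
Chac1, chr2:119350992-119351241, plus strand: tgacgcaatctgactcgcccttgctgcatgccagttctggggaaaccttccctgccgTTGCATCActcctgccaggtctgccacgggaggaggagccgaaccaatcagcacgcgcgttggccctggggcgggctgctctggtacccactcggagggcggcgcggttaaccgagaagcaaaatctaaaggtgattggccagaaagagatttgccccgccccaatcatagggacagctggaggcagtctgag
Asns, chr6:7693210-7693459, minus strand: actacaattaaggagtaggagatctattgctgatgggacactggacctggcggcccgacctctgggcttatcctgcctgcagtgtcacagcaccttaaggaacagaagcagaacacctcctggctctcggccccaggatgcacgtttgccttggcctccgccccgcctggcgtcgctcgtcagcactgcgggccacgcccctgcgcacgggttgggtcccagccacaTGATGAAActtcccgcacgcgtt
Ddit3, chr10:127290543-127290792, plus strand: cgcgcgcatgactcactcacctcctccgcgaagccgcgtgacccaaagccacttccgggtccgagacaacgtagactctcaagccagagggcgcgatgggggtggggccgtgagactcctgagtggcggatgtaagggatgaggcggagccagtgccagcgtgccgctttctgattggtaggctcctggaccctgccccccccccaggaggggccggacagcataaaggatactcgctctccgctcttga
Ppp1r15a, chr7:45526269-45526518, minus strand: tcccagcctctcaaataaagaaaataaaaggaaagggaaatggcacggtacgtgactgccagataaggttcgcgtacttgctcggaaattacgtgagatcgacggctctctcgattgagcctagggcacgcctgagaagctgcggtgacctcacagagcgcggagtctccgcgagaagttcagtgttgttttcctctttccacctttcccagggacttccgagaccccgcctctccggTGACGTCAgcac
The match in Chac1 begins 193 bases before the start, in antisense orientation, and that in Asns 23 bases before it, in sense orientation. The CRE letters of Ppp1r15a begin 12 bases before its start. No letters of either motif lie in the Ddit3 window. A match is a run of letters, and binding was not measured.

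Total estimated counts ran from 8052369 to 18159144 per library. Cultures labelled as muscle carried myotube RNA, with summed TPM (transcripts per 1000000) of 8 myotube markers between 8322 and 14913 in every library, and 4 endothelial and blood cell markers summed to at most 0.326 TPM. In 4 libraries, 1 Hz replicates 4 and 6 and 4 Hz replicates 3 and 4, the 100 genes with most counts held 26.1% to 29.8% of counts, against 20.2% to 24.4% in the other 20. Levels are given as counts per 1000000 (CPM) on edgeR's TMM scale, and log2(fold change) is stimulated minus control. A gene passed, and is said to have risen or fallen, at a Benjamini-Hochberg adjusted p under 0.05 over all genes tested in edgeR's quasi-likelihood test, and was called changed if its absolute log2(fold change) was also over 0.5. On the TPM scale the median of all genes stood at -0.14 at 1 Hz, -0.21 at 4 Hz, and -0.01 at 10 Hz, so directions there are read against those medians. In bulk RNA, fewer cells of a type and less RNA per cell cannot be told apart.

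In the unstimulated controls all 10 genes were well expressed per length. Atf4 led with 704 ± 51.8 TPM (SD, n = 6), rank 218 of all genes listed, followed by Ddit3 at 273 ± 41.3, Asns at 207 ± 10.8, and Atf5 at 175 ± 14.8 TPM. Neighbours in the order among these 4 did not overlap in range. Below them came Ppp1r15a at 173 ± 63.3, Phgdh at 162 ± 21.5, Psat1 at 130.3 ± 11.96, Gdf15 at 119.5 ± 23.2, Chac1 at 109 ± 24.04, and Trib3 at 97.9 ± 13.2 TPM, and here the ranges of neighbours overlapped, as did those of Atf5 and Ppp1r15a. The spread between control wells differed by gene. The coefficient of variation in CPM was 3.64% for Asns and 6.94% for Atf4, but 24.3% for Chac1 and 39.2% for Ppp1r15a.

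**Figure D1:**
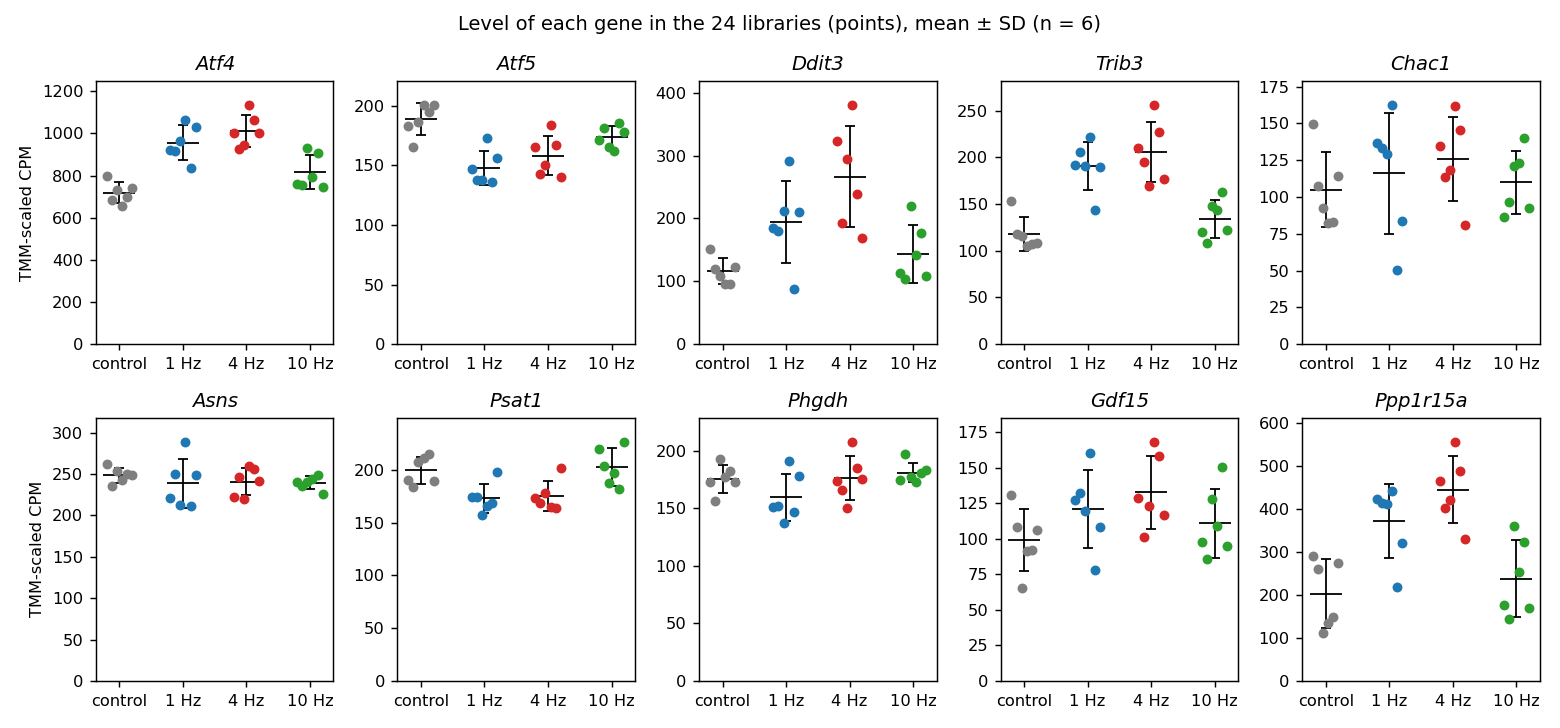
TMM-scaled CPM of each of the 10 genes in the 24 libraries, by condition (points, in replicate order from left to right), with mean ± SD of 6 libraries in black and each axis starting at 0. All 4 Hz libraries lie above every control for Atf4, Ddit3, Trib3, and Ppp1r15a, while Asns is nearly level.

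Daily stimulation at 4 Hz was accompanied by higher RNA of the transcription factors Atf4 and Ddit3 and of both feedback genes, Trib3 and Ppp1r15a, whereas the amino acid synthesis genes did not rise. Of the 10 genes, 5 rose and 2 fell at 4 Hz, where 27.5% of all genes rose and 23.9% fell. Those that rose were Atf4, Ddit3, Trib3, Gdf15, and Ppp1r15a, and those that fell were Atf5 and Psat1. Ddit3, Trib3, and Ppp1r15a were changed, all higher, against 12.8% of all genes called higher. The median log2(fold change) of the 10 was 0.34, beside 0.06 over all genes tested. In 4 of the 10, every 4 Hz library lay above every control, which held for 12.9% of all genes.

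At 1 Hz, 4 of the genes rose (Atf4, Ddit3, Trib3, and Ppp1r15a) and 2 fell (Atf5 and Psat1), where 19.2% of all genes rose and 18.1% fell. Again Ddit3, Trib3, and Ppp1r15a were changed, all higher, against 7.19% of all genes called higher. Their median log2(fold change) was 0.22, beside 0.04 over all genes. In Atf4 alone did every 1 Hz library lie above every control, a pattern seen in 5.55% of all genes. At 10 Hz, 0 of the 10 passed edgeR's test, where 0.0376% of all genes were called changed in either direction. Atf4 alone had an unadjusted p under 0.05 at 10 Hz, and 0 were changed there under each of the other tests and settings run. The median of the 10 at 10 Hz was 0.11, beside 0.01 over all genes.

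**Figure D2:**
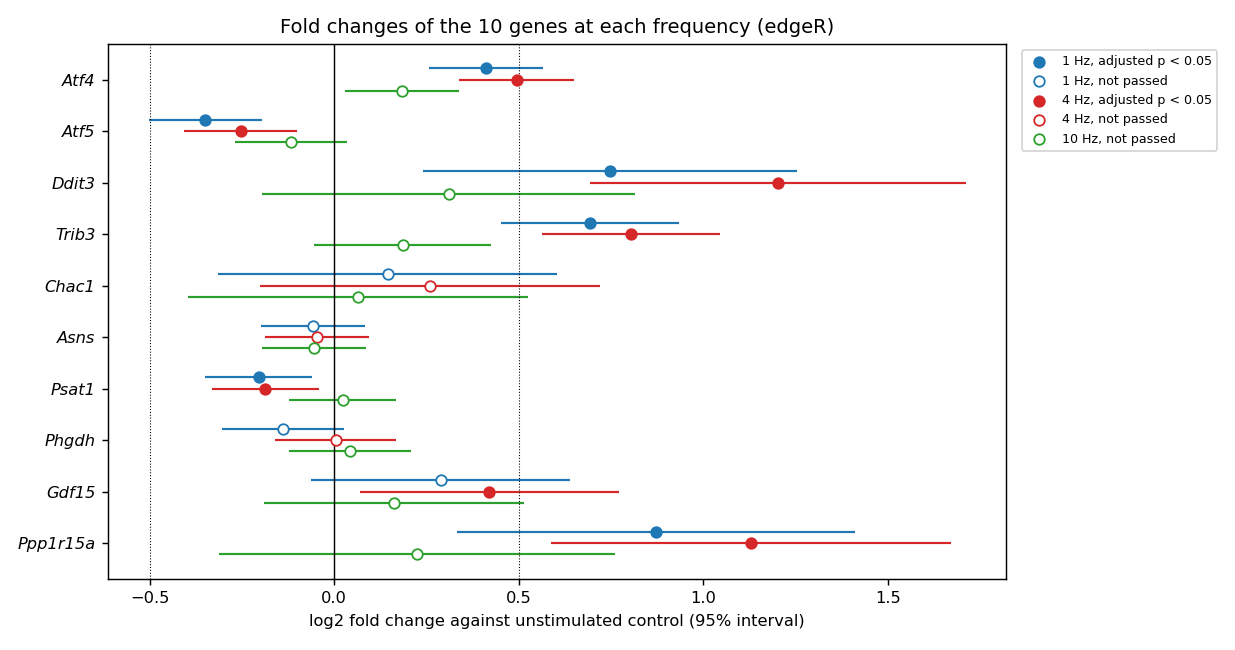
log2(fold change) of each gene at 1, 4, and 10 Hz against unstimulated controls from edgeR, with 95% intervals. Filled points passed at an adjusted p under 0.05, open points did not, and dotted lines mark 0.5 in either direction. The 10 Hz points are all open, and the largest values are those of Ddit3 and Ppp1r15a at 4 Hz.

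Atf4 itself ran from 656 to 797 CPM in the controls, with a median of 716. It ran from 835 to 1062 CPM at 1 Hz, with a median of 944, and from 927 to 1135 CPM at 4 Hz, with a median of 1002. At 10 Hz it ran from 746 to 933 CPM, with a median of 779. All 1 Hz and 4 Hz libraries thus lay above all controls, and 2 of 6 did so at 10 Hz. Its log2(fold change) at 1 Hz was 0.41 ± 0.074 (SE), with an adjusted p of 0.000131. At 4 Hz it was 0.49 ± 0.074 (adjusted p = 7.28e-06), while at 10 Hz it was 0.18 ± 0.074 (adjusted p = 0.512). On log2(TPM + 1) with limma, Atf4 no longer passed, its difference being 0.20 at 1 Hz (adjusted p = 0.0816) and then 0.16 at 4 Hz (adjusted p = 0.118). Relative to the medians of all genes on that scale, Atf4 stood at 0.34 at 1 Hz and 0.37 at 4 Hz. Its gene lies at chr15:80139372-80141745 (GRCm39), and no annotated gene overlaps it on the other strand.

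Atf5, a relative of Atf4 whose translation is controlled in a like way, moved the other way. It ran from 165 to 200.5 CPM in the controls, with a median of 190.4, from 136 to 172 CPM at 1 Hz, with a median of 142, and from 140.5 to 183 CPM at 4 Hz, with a median of 158. At 1 Hz 5 of 6 libraries lay below every control, and at 4 Hz 3 of 6 did. Atf5 stood at a log2(fold change) of -0.35 ± 0.073 at 1 Hz (adjusted p = 0.000608) and of -0.25 ± 0.073 at 4 Hz (adjusted p = 0.00566), and it passed in every alternative run at both frequencies. At 10 Hz Atf5 ran from 162 to 185 CPM (log2(fold change) -0.12, adjusted p = 0.745). Atf5 lies at chr7:44461680-44466082, where its exonic overlap with genes of the opposite strand, Nup62 and Il4i1, came to 360 bases added gene by gene.

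Ddit3 showed the largest value of the 10 at 4 Hz. The controls ran from 96.2 to 152 CPM, with a median of 114, and the 4 Hz libraries from 169 to 380.4 CPM, with a median of 267. Each 4 Hz library lay above each control, for a log2(fold change) of 1.202 ± 0.24 (SE), or 2.30-fold (adjusted p = 0.000393). The 1 Hz libraries ran from 87.4 to 291 CPM, with a median of 197, and they overlapped the controls through replicate 5 alone, which lay below every control. The log2(fold change) at 1 Hz was 0.75 ± 0.24 (adjusted p = 0.0196). Without replicate 5 it was 0.90 (adjusted p = 0.00225). Without replicate 4, the highest, it was 0.57 and no longer passed (adjusted p = 0.0763), nor did it pass without the 4 libraries rich in few genes (0.51, adjusted p = 0.143) or when low counts were not filtered (0.71, adjusted p = 0.0589).

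At 10 Hz Ddit3 ran from 104 to 219 CPM, with a median of 127, and 2 of 6 libraries lay above every control (log2(fold change) 0.31 ± 0.24, adjusted p = 0.845). Ddit3 (chr10:127124268-127132163) has 5579 exonic bases. Their overlap with exons of Mbd6, Gm4189, or Mars1 on the opposite strand came to 4596 bases. That total was added gene by gene, so a base under several of these genes counts repeatedly. The libraries were made with a directional kit per the study's methods, but how counting used strand is not stated in the sources used here. Mars1, the methionyl-tRNA synthetase, had log2(fold changes) of 0.07 at 1 Hz and 0.23 at 4 Hz (adjusted p = 0.392 and 0.00427), smaller than those of Ddit3, and the share of its reads in the Ddit3 counts was not tested.

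Trib3, which dampens ATF4 activity, rose at both low frequencies. The controls ran from 105 to 153 CPM, with a median of 112, the 1 Hz libraries from 144 to 222 CPM, with a median of 191, and the 4 Hz libraries from 169.7 to 256 CPM, with a median of 202. Every 4 Hz library and 5 of 6 at 1 Hz lay above every control, whose highest value, in replicate 1, stood apart from the others. Trib3 rose by 0.69 ± 0.12 on the log2 scale at 1 Hz (adjusted p = 5.2e-05) and by 0.80 ± 0.12 at 4 Hz (adjusted p = 4.08e-06). Trib3 passed in every alternative run at both frequencies, the TPM scale included (0.47 and 0.46). At 10 Hz it ran from 109 to 163 CPM, with a median of 133, and 1 of 6 libraries lay above every control (0.19 ± 0.12, adjusted p = 0.742). Trib3 lies at chr2:152179337-152191958, with 0 exonic bases shared with the opposite strand.

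Ppp1r15a, the phosphatase subunit that lets translation restart, rose about as much as Ddit3. The 4 Hz libraries ran from 331 to 557 CPM, with a median of 444, all above the controls, which ran from 111 to 291 CPM with a median of 205. At 1 Hz it ran from 219 to 443 CPM, with a median of 414, and replicate 5 was the only library within the range of the controls. On the log2 scale it rose by 1.13 ± 0.26 at 4 Hz (adjusted p = 0.00121) and by 0.87 ± 0.26 at 1 Hz (adjusted p = 0.0118), and both passed in every alternative run. The controls fell into a higher set, replicates 1, 2, and 6 at 259.5 to 291 CPM, and a lower set, replicates 3, 4, and 5 at 111 to 150 CPM. The 10 Hz libraries, from 143 to 360.2 CPM with a median of 214, spread as widely (log2(fold change) 0.22 ± 0.26, adjusted p = 0.92). Ppp1r15a lies at chr7:45172340-45175692 and shares 12 exonic bases with Tulp2 on the opposite strand.

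Gdf15, a circulating signal of cell stress, passed at 4 Hz only. It ran from 65.4 to 131 CPM in the controls, with a median of 99.1, from 77.9 to 160 CPM at 1 Hz, with a median of 123, and from 100.9 to 168 CPM at 4 Hz, with a median of 126. Its groups overlapped at every frequency, and 2 of 6 libraries lay above every control at 1 Hz and at 4 Hz. It rose by 0.42 ± 0.17 on the log2 scale at 4 Hz (adjusted p = 0.0402), and its value at 1 Hz was 0.29 ± 0.17 (adjusted p = 0.181). The 4 Hz call was lost in 12 of 22 alternatives, among them the removal of control replicate 3, 4, or 5 or of 4 Hz replicate 1, 3, 4, or 5, where adjusted p lay between 0.0539 and 0.129. At 10 Hz Gdf15 ran from 85.4 to 151 CPM (0.16 ± 0.17, adjusted p = 0.904). It lies at chr8:71082038-71091537 and shares 391 exonic bases with Gm34154.

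Chac1 did not pass at any frequency, and its groups overlapped throughout. The controls ran from 82.2 to 149.9 CPM, the 1 Hz libraries from 50.6 to 163 CPM, and the 4 Hz libraries from 80.9 to 162 CPM, with medians of 100.02, 131, and 126. The log2(fold change) was 0.15 ± 0.22 at 1 Hz (adjusted p = 0.632), with a 95% interval from -0.31 to 0.60, and 0.26 ± 0.22 at 4 Hz (adjusted p = 0.336), with an interval from -0.20 to 0.72. The lowest value of all 24 libraries was again that of 1 Hz replicate 5. On the TPM scale the sign turned at 1 Hz and 4 Hz (-0.13 and -0.07, both above the median of all genes). Changes of the size seen for Trib3 at 4 Hz lie just outside its interval. Chac1 lies at chr2:119180757-119184866.

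Between conditions, the amino acid synthesis genes did not rise with Atf4. Asns, the asparagine synthetase, ran from 235 to 262 CPM in the controls, from 212 to 289 CPM at 1 Hz, and from 219.9 to 259 CPM at 4 Hz, with medians of 249.3, 235, and 244. Its log2(fold change) was -0.06 ± 0.068 at 1 Hz and -0.05 ± 0.068 at 4 Hz (adjusted p = 0.532 and 0.591). The 95% intervals, from -0.20 to 0.08 and from -0.19 to 0.10, end below the rise of Atf4 at either frequency. At 10 Hz it was -0.05 ± 0.068 (adjusted p = 0.93). Asns lies at chr6:7671667-7728461 and shares 391 exonic bases with 1700012J15Rik on the opposite strand.

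Psat1 fell slightly at both low frequencies. It ran from 183 to 215 CPM in the controls, with a median of 199, from 158 to 198 CPM at 1 Hz, with a median of 171, and from 164 to 202 CPM at 4 Hz, with a median of 171. At each of these frequencies 5 of 6 libraries lay below every control, and replicate 6 did not. On the log2 scale it fell by 0.20 ± 0.069 at 1 Hz (adjusted p = 0.0224). At 4 Hz it fell by 0.19 ± 0.069 (adjusted p = 0.0265). The 1 Hz call was lost without control replicate 3 or 5 (adjusted p up to 0.0656), and the 4 Hz call without 4 Hz replicate 2 or with upper-quartile factors (up to 0.0522). At 10 Hz Psat1 ran from 181 to 227 CPM (0.02 ± 0.069, adjusted p = 0.984). Psat1 lies at chr19:15882039-15924701.

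Phgdh ran from 156 to 193 CPM in the controls, from 138 to 191 CPM at 1 Hz, and from 150.04 to 208 CPM at 4 Hz, with medians of 175, 152, and 174. Its log2(fold change) was -0.14 ± 0.079 at 1 Hz (adjusted p = 0.167), and 4 of 6 libraries lay below every control. At 4 Hz it was 0.00 ± 0.079 (adjusted p = 0.973), and its sign there turned with the scaling. Leaving out 1 Hz replicate 4 brought its 1 Hz value to -0.22 and past the threshold (adjusted p = 0.0286), as did leaving out the 4 libraries rich in few genes (-0.26, adjusted p = 0.00192). On log2(TPM + 1) with limma, 3 genes rose at both 1 Hz and 4 Hz (Ddit3, Trib3, and Ppp1r15a) and 4 fell (Atf5, Asns, Psat1, and Phgdh), where 3.64% of all genes rose and 21.9% fell at 1 Hz, and 5.92% rose and 35.9% fell at 4 Hz. Relative to the median of all genes at 4 Hz, Asns stood at -0.16, Phgdh at -0.17, and Psat1 at -0.29. Phgdh lies at chr3:98220484-98255047.

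The frequencies were then compared with each other in the same fit. At 4 Hz against 1 Hz, 0 of the 10 genes passed, as did 0% of all genes called changed in either direction, although 1465 genes had an unadjusted p under 0.05. The value farthest from 0 was 0.45 ± 0.24, for Ddit3 (adjusted p = 0.488). At 10 Hz against 4 Hz, Atf4, Ddit3, Trib3, and Ppp1r15a were lower and Psat1 was higher, where 24.4% of all genes were lower and 21.9% higher. Of these, Ddit3 (log2(fold change) -0.89 ± 0.24, adjusted p = 0.00524), Trib3 (-0.62 ± 0.12, adjusted p = 0.000148), and Ppp1r15a (-0.90 ± 0.26, adjusted p = 0.00737) were changed, against 10.6% of all genes called lower. Every 10 Hz library lay below every 4 Hz library for Trib3, and 4 of 6 and 5 of 6 did for Ddit3 and Ppp1r15a. The share of all genes with such a separation was not computed for this comparison. Without the 4 libraries rich in few genes, Ppp1r15a missed the threshold (adjusted p = 0.0506). On the TPM scale Trib3 (-0.29, adjusted p up to 0.0687) and Atf4 (-0.003, adjusted p = 0.983) did so too.

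At 10 Hz against 1 Hz, Atf4 (-0.23 ± 0.074, adjusted p = 0.0249) and Trib3 (-0.51 ± 0.12, adjusted p = 0.00205) were lower and Atf5 (0.23 ± 0.073, adjusted p = 0.0203) and Psat1 (0.23 ± 0.069, adjusted p = 0.0169) higher, where 13.1% of all genes were lower and 14.8% higher. The Atf4 call was lost in 10 of 22 alternatives: without 1 Hz replicate 4 or 6 or 10 Hz replicate 1, 2, or 6 (adjusted p from 0.056 to 0.076), without the 4 libraries rich in few genes (0.124), without a filter on low counts (0.0972), with only the groups compared (0.0568), and on the TPM scale with either pseudocount (-0.04, adjusted p up to 0.801). The Psat1 call was lost without 10 Hz replicate 1 or 6 (adjusted p up to 0.0618), and that of Trib3 on the TPM scale (adjusted p up to 0.0937). Only Trib3 was changed, where 4.99% of all genes were called lower. That count of 1 was not stable. It was 3 without 1 Hz replicate 5, with Ddit3 and Ppp1r15a added, and 2 without 10 Hz replicate 3 or 5. It was 0 without 1 Hz replicate 2, 3, 4, or 6 or 10 Hz replicate 1, 2, or 6, where the absolute log2(fold change) of Trib3 was under 0.5. Ddit3 itself was at -0.44 ± 0.24 (adjusted p = 0.179).

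**Figure D3:**
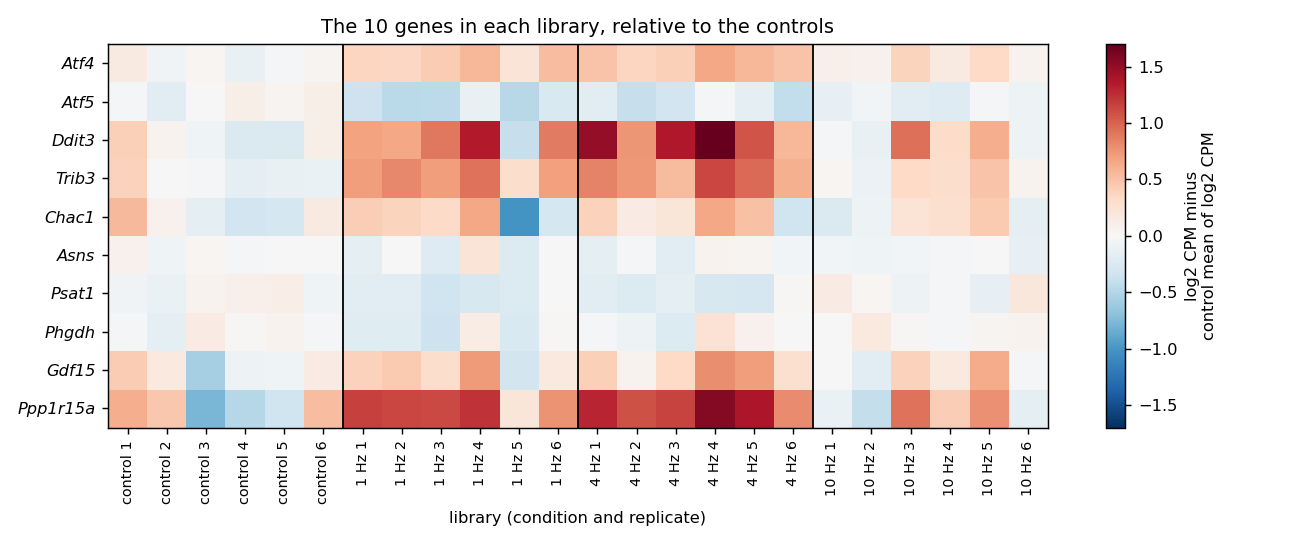
log2 CPM of the 10 genes (rows) in each library (columns, by condition and replicate) minus the control mean of log2 CPM, with red above and blue below the controls. The 1 Hz and 4 Hz columns are red for Ddit3, Trib3, and Ppp1r15a but pale, or blue for Ddit3, in 1 Hz replicate 5, and 10 Hz replicates 3 and 5 are redder than the other 10 Hz libraries.

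Within a condition the libraries differed in step. 1 Hz replicate 4 was the highest of its group for 9 of the 10 genes and 4 Hz replicate 4 likewise for 9, and both are among the libraries rich in few genes. 1 Hz replicate 5 was the lowest of its group for 8 genes, control replicate 1 the highest for 7, and 10 Hz replicate 5 the highest for 5. How often these libraries were highest or lowest over all genes was not computed. After the condition means had been subtracted, the 15 pairs among Atf4, Ddit3, Trib3, Chac1, Gdf15, and Ppp1r15a had Pearson's r from 0.63 to 0.88 over 24 libraries, the highest for Gdf15 with Ppp1r15a. Psat1 ran against these 6 genes, with r from -0.67 to -0.38. Atf5, Asns, and Phgdh went together at r from 0.51 to 0.78. These groupings were not planned beforehand, and the sets were not apart. With the same 6 genes, Asns had r from 0.28 (Ppp1r15a) to 0.62 (Atf4). Atf5 had r from 0.10 (Ppp1r15a) to 0.46 (Atf4), and Phgdh from -0.12 (Ppp1r15a) to 0.48 (Atf4). Without the 4 libraries rich in few genes and 1 Hz replicate 5, the range over the 15 pairs was 0.67 to 0.87 and that of Psat1 was -0.81 to -0.57, but that of Atf5, Asns, and Phgdh was -0.03 to 0.58. These coefficients describe libraries that share depth and composition, and no test was made of them.

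**Figure D4:**
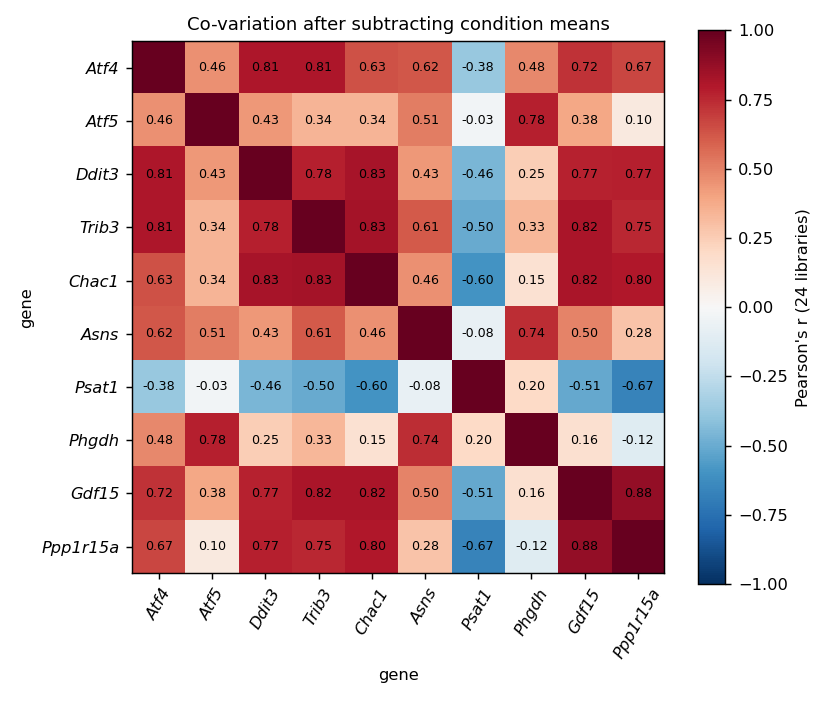
Pearson's r between each pair of the 10 genes in log2 CPM over 24 libraries, after subtracting the mean of each condition, from blue (-1) to red (1). Psat1 forms the blue row and column, and Gdf15 with Ppp1r15a is the reddest pair at 0.88.

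The genes whose levels most resembled the mean of the 10 (each gene scaled to its own spread, 24 libraries, 10670 genes considered) were Rps2 (r = 0.91), Cryab (0.91), Babam1 (0.90), Rps2-ps10 (0.90), and Tmem109 (0.90). Rps2 encodes a protein of the small ribosomal subunit, Rps2-ps10 is annotated as a pseudogene of it and may share its reads, and Cryab encodes a small heat shock protein abundant in muscle. After subtracting condition means they were Cryab (0.95), Rpl4 (0.93), Ifi30 (0.93), Nupr1 (0.92), and Rps2 (0.92). The mean of the 10 joined genes that ran against each other, such as Psat1 and Ppp1r15a. Before condition means were subtracted, it ran from -1.305 in 1 Hz replicate 5 to 1.25 in 4 Hz replicate 4. Neither ranking was repeated with libraries left out.

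The wider pathway was read from 8 lists of genes. Of the 24 genes named from them by smallest p, 18 share exonic bases with a gene of the opposite strand. Added gene by gene, the overlaps of Sqstm1 (1553) and Xbp1 (1526) were the largest, and reads of the neighbours may be in the counts of the 18. Pairs of values below are log2(fold changes) at 1 Hz and then at 4 Hz, of genes that passed unless an adjusted p over 0.05 is given. The counts of each list stand beside all 13315 genes tested, of which 19.2% rose and 18.1% fell at 1 Hz and 27.5% rose and 23.9% fell at 4 Hz, and the lists were not tested against them. Upstream, Eif2ak3, which encodes the kinase PERK of the endoplasmic reticulum, ran from 29.0 to 34.4 CPM in the controls, from 39.4 to 53.1 at 1 Hz, and from 41.6 to 56.7 at 4 Hz. Every 1 Hz and 4 Hz library lay above every control, with log2(fold changes) of 0.55 ± 0.082 (adjusted p = 1.3e-05) and 0.54 ± 0.082 (adjusted p = 8.28e-06). The eIF2 kinase gene Eif2ak1 went the other way, again without overlap. It ran from 51.3 to 59.4 CPM in the controls, from 31.2 to 48.5 at 1 Hz, and from 32.5 to 42.3 at 4 Hz. The remaining kinase genes, Eif2ak2 and Eif2ak4, overlapped the controls at both frequencies. Of 17 genes of eIF2 kinases, eIF2, and its exchange factor, 3 rose and 4 fell at 1 Hz, and 3 rose and 7 fell at 4 Hz (medians -0.07 and -0.10), or 17.6% rising at either frequency and 23.5% and 41.2% falling. The fallen genes included subunits of eIF2B, the exchange factor that phosphorylated eIF2 inhibits: Eif2b3 (-0.51 and -0.70) and Eif2b4 (-0.56 and -0.62). On the TPM scale 0 of the 17 rose at either frequency, Eif2ak3 included, and 6 and 9 fell.

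Of 7 tested genes of ATF4 partners and related factors, 3 rose and 2 fell at 1 Hz, and 4 rose and 2 fell at 4 Hz (medians 0.53 and 0.44). Cebpg, which encodes a dimer partner of ATF4, rose by 0.53 at 1 Hz and 0.44 at 4 Hz. Nupr1, a stress-induced transcriptional regulator, rose by 0.54 and 0.62, and Cebpd rose by 0.63 and 0.96. With limma on log2(TPM + 1), Cebpd no longer passed at 1 Hz (0.28, adjusted p = 0.2). On that scale 2 of the 7 rose and 2 fell at 1 Hz, and 3 rose and 2 fell at 4 Hz. Nupr1 ran from 114 to 138 CPM in the controls and from 162 to 231 CPM at 4 Hz, with no overlap. Of 12 other ATF4 targets, 3 rose and 3 fell at 1 Hz, and 5 rose and 4 fell at 4 Hz (medians 0.01 and 0.11), or 25% in each direction and then 41.7% and 33.3%. On the TPM scale 0 of the 12 rose, and 3 and 4 fell. Eif4ebp1, a repressor of translation initiation, rose by 0.32 and 0.47, calls lost on the TPM scale (0.14, adjusted p = 0.24, and 0.20, adjusted p = 0.0683), while Stc2, a secreted glycoprotein, was at -0.35 and -0.57 and Sqstm1, the autophagy receptor p62, at -0.27 and -0.34.

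Genes of amino acid supply moved in both directions, and more fell than rose in the main test. Of 15 tested genes of serine, one-carbon, proline, and cysteine synthesis, 3 rose and 5 fell at 1 Hz, and 4 rose and 7 fell at 4 Hz (medians -0.08 and 0.01). Without the 4 libraries rich in few genes, 5 rose and 5 fell at 1 Hz, and 3 rose and 6 fell at 4 Hz. Mthfd1 and Shmt1, cytosolic enzymes of one-carbon metabolism, were at -0.61 and -0.61 and at -0.61 and -0.56, and Pck2, the mitochondrial PEPCK, was at 0.35 and 0.50. With limma on log2(TPM + 1), Pck2 no longer passed at 1 Hz (0.16, adjusted p = 0.263). On that scale 0 of the 15 rose and 6 fell at 1 Hz, and 1 rose and 9 fell at 4 Hz, where 21.9% and 35.9% of all genes fell. Of 13 genes of tRNA charging and export, 1 rose and 5 fell at 1 Hz, and 1 rose and 7 fell at 4 Hz (medians -0.15 and -0.23). On the TPM scale 0 of the 13 rose, and 5 and 9 fell. Xpot, the tRNA exporter, was at -0.40 and -0.63, Tars1 at -0.24 and -0.41, and Nars1 at -0.18 and -0.29.

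Of 9 tested amino acid transporters, 0 rose and 2 fell at 1 Hz, and 1 rose and 2 fell at 4 Hz (medians -0.01 and -0.05), so that 22.2% fell at either frequency. Without the 4 libraries rich in few genes, 1 rose and 1 fell at 1 Hz, and 2 rose and 2 fell at 4 Hz. On the TPM scale, where 8 of the 9 were tested, 0 rose, and 2 and 4 fell. The cystine importer Slc7a11 ran from 31.0 to 36.3 CPM in the controls, from 9.21 to 21.6 at 1 Hz, from 6.76 to 19.6 at 4 Hz, and from 21.2 to 48.7 at 10 Hz. Its values at 1 Hz and 4 Hz were -0.98 ± 0.22 (adjusted p = 0.00164) and -1.30 ± 0.23 (adjusted p = 7.24e-05), with every library below every control. Slc43a1, a transporter of large neutral amino acids, was at 0.59 at 1 Hz (adjusted p = 0.0571) and rose by 1.14 at 4 Hz (adjusted p = 0.000343). This gene, the 1 transporter that rose in the main test, was scarce. It averaged 0.66 CPM without stimulation and 1.47 CPM under 4 Hz pulses. It missed the filter on the TPM scale, so its rise could not be checked there. Slc38a2 was at -0.15 (adjusted p = 0.195) and -0.36 (adjusted p = 0.00222).

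The other branches of the unfolded protein response, through IRE1 and ATF6, had many genes that rose. Of 19 genes, 11 rose and 0 fell at 1 Hz, and 12 rose and 0 fell at 4 Hz (medians 0.33 and 0.38). Xbp1, the target of IRE1 splicing, ran from 162 to 196 CPM in the controls, from 249.1 to 273 at 1 Hz, and from 240.2 to 276 at 4 Hz, all above every control (0.51 ± 0.058 and 0.54 ± 0.058). Edem1 and Herpud1, of degradation from the endoplasmic reticulum, rose by 0.46 and 0.38 and by 0.37 and 0.49. On the TPM scale only 2 of the 19 rose at 1 Hz, and 1 rose and 3 fell at 4 Hz, while the list's medians stood at 0.24 and 0.25 above those of all genes. With limma on log2(TPM + 1), the calls of Xbp1 were lost at both frequencies (0.22, adjusted p = 0.163, and 0.19, adjusted p = 0.191). Those of Herpud1 were lost at both as well, and that of Edem1 at 4 Hz. Of 10 mitochondrial chaperones and proteases, 0 rose and 2 fell at 1 Hz, and 1 rose and 2 fell at 4 Hz (medians 0.02 and -0.02). Hspd1, the mitochondrial HSP60, was at -0.50 and -0.66 and Clpx, a protease subunit, at -0.29 and -0.30, and Lonp1, a matrix protease, was at 0.11 (adjusted p = 0.271) and rose by 0.23 (adjusted p = 0.0124), with its sign turned on the TPM scale. At 10 Hz, 0 genes of any of the 8 lists passed in edgeR, and Shmt1 (-0.45, adjusted p = 0.157) and Xbp1 (0.23, adjusted p = 0.137) were nearest.

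**Figure D5:**
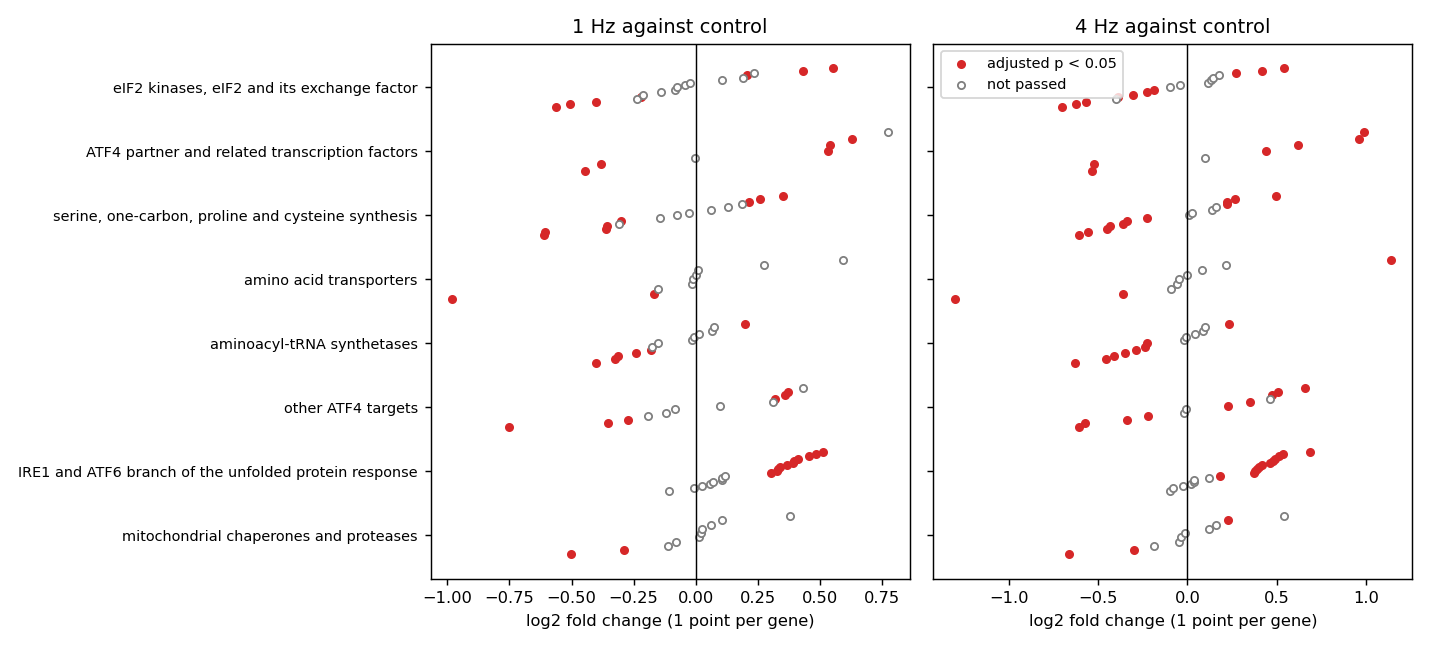
log2(fold change) of each tested gene of the 8 pathway lists at 1 Hz and 4 Hz against unstimulated controls, 1 point per gene, filled red at an adjusted p under 0.05. The IRE1 and ATF6 list has filled points only to the right of 0 (11 and 12), whereas the other lists have them on both sides or mainly to the left.

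Markers of cell state moved at the same frequencies. Of 3 genes listed here as markers of undifferentiated myoblasts, 2 fell and 1 rose at both 1 Hz and 4 Hz. Their summed TPM ran from 176 to 223 in the controls, 65.0 to 100.3 at 1 Hz, 49.2 to 80.3 at 4 Hz, and 164 to 203 at 10 Hz. Most of that sum was Myod1, with a control mean of 193 TPM, beside 9.96 for Myf5 and 1.63 for Pax7. The paper counts Myod1, like Myog, among genes of myogenic differentiation, so the sum does not measure undifferentiated cells. Myod1 was at -1.42 and -1.75, Pax7 at -1.58 and -1.53, and Myf5 at 1.32 and 1.17. Of 8 myotube markers, Myog alone passed, at -1.34 and -1.47. At 1 Hz and 4 Hz alike, 2 of 3 tested fibroblast markers rose and 1 fell, and the 1 tested fat cell marker, Pparg, rose. On the TPM scale 0 fibroblast markers rose and 1 fell at either frequency, and Pparg did not pass. The fat cell markers Adipoq, Fabp4, and Plin1 missed the filter, with control means of at most 0.171 TPM. Of 4 cell cycle markers, 1 rose and 0 fell at 1 Hz, and 1 rose and 2 fell at 4 Hz. Those that fell, Mki67 and Ccnb1, were low, with control means of 2.73 and 3.89 CPM and 4 Hz means of 1.27 and 1.83 CPM. On the TPM scale 0 of 3 cell cycle markers rose at either frequency, and 1 fell at 4 Hz. At 10 Hz 0 markers of any list passed. The part of these shifts in the values of the 10 genes was not tested.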

How the data were processed

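RNA of muscle tissues from the 60-min experiment was sequenced by the authors as paired-end libraries, 6 per condition. The submitters' processing notes name BWA, bedtools, STAR, and Salmon and the build GRCm39, and the paper's methods name the nf-core/rnaseq pipeline. The authors deposited an estimated count per gene and library, summed over transcripts and not normalized, and a TPM per gene and library, normalized for transcript length and library total. Libraries were directional per the paper's methods. Use of read strand in counting is not given in the sources used here. The total count per library, 8052369 to 18159144, and a biological coefficient of variation of 14.8% set the precision.

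Here, estimated counts were rounded to whole numbers, filtered by filterByExpr (minimum count 10, total 15), scaled by TMM, and tested by the quasi-likelihood F test of edgeR 4.0.16 (robust, 1 fit of all 24 libraries with a mean per condition), with p-values adjusted by Benjamini-Hochberg over 13315 genes. Samples were grouped by their labels. Positions come from GENCODE M39, in which 98.9% of the gene identifiers were found, and promoters from RefSeq (GRCm38.p6).

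Alternatives were DESeq2 size factors (RLE), upper-quartile factors, dropping the filter or raising it to 50 counts in at least 6 libraries, fitting just the groups under comparison, the replicate number as a block, the Wald test of DESeq2 1.42.0, limma 3.58.1 on log2(TPM + 1) and log2(TPM + 0.1) (restricted to genes reaching 1 TPM in 6 libraries), no threshold on fold change, and leaving out each library. Leaving out the 4 libraries rich in few genes was added after seeing the data. The scripts were tested on simulated data. The 10 genes and the pathway and marker lists were chosen with earlier results of these data known. From each pathway list the 3 tested genes with the smallest p at 1 or 4 Hz are named, and Mars1 was named for its overlap with Ddit3 after its values were seen. Eif2ak1, Eif2ak2, and Eif2ak4 were named as the other eIF2 kinase genes, also after their values were seen. For likeness, the 5 genes with the highest r to the mean of the scaled log2 CPM of the 10 are named, out of those averaging 2 or more in log2 CPM.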

Additional observations from a re-analysis of the deposited data

Results flagged for a closer look

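A gap between the highest library and the next, relative to the range of its group, passed Dixon's 95% critical value of 0.625 in 2 of 40 groups of 6 libraries (10 genes in 4 conditions). Chance flags about 1 in 20 groups, that is, as many. Trib3 in control replicate 1 was at 153 CPM, against 118 CPM in the next control. Psat1 in 4 Hz replicate 6 was at 202 CPM, against 178 CPM in the next library at 4 Hz.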

How the results depend on the processing

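The counts of genes changed among the 10 were 3, 3, 0, 1, 3, and 0 at 1, 4, and 10 Hz against control, 10 against 1 Hz, 10 against 4 Hz, and 4 against 1 Hz. Leaving out each library in turn, they ran from 2 to 3 at 1 Hz, from 3 to 5 at 4 Hz (5 without control replicate 1, with Atf4 and Gdf15 added), from 0 to 3 for 10 against 1 Hz, and stayed at 0, 3, and 0 in the others. By adjusted p alone they were 6 at 1 Hz, 7 at 4 Hz, 4 for 10 against 1 Hz, and 5 for 10 against 4 Hz. For 10 against 1 Hz the count was 0 without a filter, with limma on log2(TPM + 1) and on log2(TPM + 0.1), and without the 4 libraries rich in few genes. The replicate numbers did not pair the libraries: deviations of same-numbered libraries had r from -0.33 to 0.24 in 36 pairs, 3 of them over 0.1, and in 4 of the 36 a library correlated best with its own number. With the replicate block the counts were again 3, 3, 0, 1, 3, and 0, and Gdf15 at 4 Hz missed the threshold (0.41, adjusted p = 0.0623).

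Signs turned as follows, all in values that did not pass in the main test apart from Lonp1 at 4 Hz. With limma on log2(TPM + 1) and log2(TPM + 0.1), Chac1 was at -0.130 and -0.132 at 1 Hz, -0.069 and -0.070 at 4 Hz, 0.1865 and 0.189 at 10 against 1 Hz, and 0.126 and 0.127 at 10 against 4 Hz. Gdf15 was at 0.072 and 0.073 at 10 against 1 Hz and 0.043 and 0.044 at 10 against 4 Hz, Phgdh at -0.383 and -0.385 at 4 Hz and -0.011 and -0.011 at 10 Hz, Asns at 0.309 and 0.311 at 10 against 4 Hz, and Lonp1 at -0.112 and -0.113 at 1 Hz and -0.104 and -0.105 at 4 Hz. Against control, the median of all genes was lower on that scale. Phgdh at 4 Hz was at -0.023 with RLE factors, -0.040 without a filter, -0.002 with a strict filter, -0.0022 with the replicate block, -0.028 with DESeq2, -0.035 without the 4 libraries, and -0.024 with only the groups compared. Asns at 10 against 4 Hz was at 0.014 with RLE factors, 0.026 without a filter, 0.018 with DESeq2, 0.0067 without the 4 libraries, and 0.016 with only the groups compared, and at 10 against 1 Hz it was at -0.021 with upper-quartile factors. Leaving out each library in turn, Chac1 ran from -0.0034 to 0.30 at 1 Hz, -0.016 to 0.19 at 10 Hz, and -0.23 to 0.059 at 10 against 1 Hz, Phgdh from -0.079 to 0.021 at 4 Hz, Psat1 from -0.011 to 0.052 at 10 Hz, and Asns from -0.029 to 0.079 at 10 against 1 Hz and -0.030 to 0.034 at 10 against 4 Hz. The cause of these turns was not tested. The lowest level of the 10 genes in any library was 50.6 CPM, so depth limits little here.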
